A study of Mus musculus with 4 samples.

Results

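The p53 pathway was examined in mouse liver through 33 genes, namely Trp53, which encodes p53, its regulators Mdm2 and Mdm4, and 30 genes that p53 activates or that answer to DNA damage. The genes were chosen by symbol for these roles, with earlier results of these data known. All 33 were found among the 46603 Ensembl identifiers counted. Total liver RNA came from 4 C57BL/6 J mice, labelled male, carrying the HuR flox/flox alleles, 2 in each group. Control mice 1 and 2 had received AAV8-TBGP-GFP, and mice 3 and 4, labelled HuR hKO, had received AAV8-TBGP-Cre, a virus in which the thyroxine-binding globulin promoter drives Cre recombinase in hepatocytes. All 4 mice were fed for 4 weeks a Western diet with 42% of its kcal from fat and 0.1% cholesterol, with fructose at 23.1 g/L and glucose at 18.9 g/L in the drinking water (WDSW). The age of the mice is not given in the sources used here. Elavl1 encodes HuR, an RNA binding protein that attaches to AU-rich and U-rich stretches of many transcripts, and the comparison asks how hepatocyte HuR bears on the liver transcriptome under this diet.

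p53 is a transcription factor that is kept scarce in unstressed cells because Mdm2, a ubiquitin ligase, marks it for degradation, while Mdm4 blocks its activation domain. DNA damage and other stresses free p53 from Mdm2, and the stabilised protein switches on genes that halt the cell cycle, trigger apoptosis, adjust metabolism or repair DNA, as well as Mdm2 itself. Since this control acts mainly on the protein, the level of Trp53 mRNA need not follow p53 activity. In liver, Cdkn1a and other p53 targets are known to answer to genotoxic drugs, fatty liver injury and partial hepatectomy.

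p53 binds a pair of 10-base motifs, here called p53 decamers. Upstream sequences of 4 genes are printed, each with the exact decamer in the 250 bases before the start. Cdkn1a, Bax and Ccng1 were picked because they are among the genes with the smallest p-values below. Mdm2 was picked as the feedback target of p53. Other members had decamers nearer the start, such as Ei24 (10 bases) and Gadd45a (40 bases). Whether p53 acts through any of these decamers was not tested. Each printed sequence is the 250 bases before the RefSeq start on GRCm38.p6, written 5′ to 3′ along the gene's strand, with decamers in capitals. The Cdkn1a window printed is that of the first of its 2 listed starts, and the 250 bases before the second held 0 decamers. The printed window lies at chr17:29090729-29090978 on the plus strand, with decamers beginning 73 and 51 bases before the start. The others lie on minus strands, Bax at chr7:45466899-45467148 with its decamer 201 bases before the start, Ccng1 at chr11:40755287-40755536 with its decamer 185 bases before it, and Mdm2 at chr10:117710759-117711008 with its decamer 186 bases before it.
Cdkn1a: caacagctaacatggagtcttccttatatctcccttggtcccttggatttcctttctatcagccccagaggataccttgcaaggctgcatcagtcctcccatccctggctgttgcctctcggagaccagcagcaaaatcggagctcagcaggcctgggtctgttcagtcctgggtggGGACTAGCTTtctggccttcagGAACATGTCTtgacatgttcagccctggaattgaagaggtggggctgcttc
Bax: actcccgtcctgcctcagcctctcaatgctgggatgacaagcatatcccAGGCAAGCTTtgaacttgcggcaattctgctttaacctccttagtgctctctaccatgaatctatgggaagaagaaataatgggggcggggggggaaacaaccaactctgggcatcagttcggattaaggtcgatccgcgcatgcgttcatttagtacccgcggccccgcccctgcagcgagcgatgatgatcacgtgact
Ccng1: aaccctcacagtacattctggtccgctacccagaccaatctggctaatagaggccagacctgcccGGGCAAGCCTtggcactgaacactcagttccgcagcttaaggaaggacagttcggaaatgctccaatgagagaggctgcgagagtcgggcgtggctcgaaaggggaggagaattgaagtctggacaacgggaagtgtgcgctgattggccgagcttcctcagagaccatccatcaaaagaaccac
Mdm2: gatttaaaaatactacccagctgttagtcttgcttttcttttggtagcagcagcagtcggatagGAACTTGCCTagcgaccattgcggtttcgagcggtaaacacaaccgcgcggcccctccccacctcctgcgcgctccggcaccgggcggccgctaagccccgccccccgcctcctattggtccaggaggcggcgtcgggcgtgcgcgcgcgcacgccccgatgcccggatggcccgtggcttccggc

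Of the 33 genes, 24 had at least 1 start in the RefSeq promoter table, with 32 windows of 300 bases that reach 50 bases past the start. The exact decamer, searched on both strands with no mismatch, was in 11 of these windows (34.4%), against 8.36% of all 32851 windows in the table. It was found for 10 genes, Aen, Bax, Ccng1, Cdkn1a, Ei24, Gadd45a, Mdm2, Polk, Sesn1 and Trp53. Of these, Aen, Ei24, Gadd45a, Mdm2, Polk, Sesn1 and Trp53 did not reach an unadjusted p under 0.05. Btg2 and Phlda3, also among the genes with the smallest p-values below, were searched and held 0 decamers. The letters GGGCGG, the core bound by Sp1, were in 75% of the member windows and 35.7% of all windows, CCAAT was in 53.1% and 37.4%, and TATAAA was in 12.5% and 13.6%. These matches describe letters in the sequence, and binding was not measured. Ddb2, Rev3l, Tnfrsf10b, Xpc, Rrm2b, Trp53inp1, Pmaip1, Zmat3 and Perp were not searched.

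AU-rich elements in the 3′ UTR, the kind of sequence HuR is known to bind, were counted in the annotated transcript of each gene with the longest 3′ UTR. The pentamer ATTTA, given as DNA, was in 23 of the 31 members that passed the filter on low counts (74.2%) and in 69.5% of 11949 coding genes that passed it, with a median of 1.88 and 1.3 pentamers per kb. The longer element TTATTTATT was in 6 members (19.4%) and in 7.93% of the coding genes. It was found in Mdm2, Plk2, Rrm2b, Tnfrsf10b, Trp53inp1 and, at 2 places, Plk3. Of the genes described most fully below, Cdkn1a held 4 pentamers and 0 copies of the longer element, Btg2 held 5 pentamers, Ccng1 held 8, and Bax and Phlda3 held 0. Tnfrsf10b had the largest fitted fold change, on 2 to 18 counts per library, and Plk3 the lowest, which turned positive without control mouse 1. These matches describe letters, and HuR binding was not measured. Sites are shown with the element in capitals, on GRCm38 as annotated by GENCODE M21. They lie in Tnfrsf10b (chr14:69783498-69783526, plus strand), Plk3 (chr4:117128718-117128746, minus strand) and Mdm2 (chr10:117688915-117688943, minus strand).
Tnfrsf10b 3′ UTR: taattttttaTTATTTATTttcttcattc
Plk3 3′ UTR: tggaccacttTTATTTATTaacagacatt
Mdm2 3′ UTR: ggcattgatgTTATTTATTtgcaaataaa

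The libraries held 13032095 to 19715577 counts on genes, the largest being HuR hKO mouse 4, and 6.56% to 7.64% of the counts came from mitochondrial genes. Values per mouse are CPM, the counts divided by the library size after scaling with TMM factors, and a count of 0 would allow a level of up to 0.152 to 0.23 CPM. Elavl1 (chr8, 4285382 to 4325413, minus strand), the gene that Cre targets, was not reduced in these counts, which are per gene and do not separate exons. It was at 28.4 and 25.9 CPM in the controls and at 37.7 and 34.4 CPM where the label reads HuR hKO, and so had a log2 fold change of 0.41 (SE 0.135, n = 2 per group, edgeR adjusted p = 0.545), with an unadjusted p under 0.05 in the higher direction. The count covers whole liver, which includes cells that the promoter does not reach, and does not show the level in hepatocytes alone. In bulk tissue, fewer cells of a type and less RNA per cell cannot be told apart. The cause of the higher Elavl1 count was not tested. Elavl1 also shares exon sequence with Ccl25 on the opposite strand. Every direction below is therefore that of the libraries labelled HuR hKO over control. The 10 hepatocyte markers summed to 74959.7 to 85718.3 CPM.

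Cdkn1a stood out among the p53 pathway genes, with 2.12-fold its control level in the libraries labelled HuR hKO, and 5 further genes, Tnfrsf10b, Bax, Btg2, Phlda3 and Ccng1, were higher at an unadjusted p under 0.05. Trp53, Mdm2, Mdm4 and the DNA repair genes did not reach this level, and 0 of the 33 genes passed after adjustment over all genes. The edgeR quasi-likelihood test was run on 13001 genes that passed a filter on low counts, 31 of the 33 among them. Of those 31, 18 had a higher and 13 a lower fitted level in the libraries labelled HuR hKO (50.3% of all genes tested were higher), and the median log2 fold change was 0.08, against 0.0 over all genes tested. A fold change of at least 1.8 together with an unadjusted p under 0.05, hereafter the threshold, was passed by 2 members in the higher direction, Cdkn1a and Tnfrsf10b, and by 0 in the lower direction, while 1.21% of all genes tested passed it as higher and 0.915% as lower (2.12% in all). Which members passed changed with the mouse left out, and without mouse 4 Cdkn1a fell under the 1.8-fold limit (log2 fold change 0.82). At an unadjusted p under 0.05 alone, 6 members were higher and 0 lower, against 4.04% and 3.39% of all genes tested (7.43% in either direction). Because the members were chosen with earlier results known, these shares are description only, and no test was run over the list. With an adjusted p under 0.05 there were 0 members by this test, its robust form, limma-voom and the DESeq2 Wald test. The exact test of edgeR passed 1 member. Of all genes tested, 0.0231% (3 genes) passed by the quasi-likelihood test and 120 genes by the exact test.

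The mice of the 2 labelled groups did not overlap in 13 of the 31 members, against 38.1% of all genes tested. Both mice labelled HuR hKO lay above both control mice for Cdkn1a, Tnfrsf10b, Ccng1, Bax, Bbc3, Btg2, Phlda3, Ei24 and Perp (9 members, 19.3% of all genes), and below them for Mdm4, Zmat3, Xpc and Rrm2b (4 members, 18.8% of all genes). Members varied between mice of the same group about as much as between groups. The median fold between the 2 control mice was 1.22, that between the mice labelled HuR hKO was 1.21, and that between the groups was 1.18, where all genes tested had medians of 1.16, 1.15 and 1.12. The fold between groups exceeded both folds within a group for 10 members, Cdkn1a, Tnfrsf10b, Ccng1, Bax, Btg2, Phlda3, Zmat3, Ei24, Perp and Xpc. The share of all genes tested that did so was not computed, so this count has no base rate beside it. The fold between groups draws on 2 mice per group, whereas each fold within a group compares single mice.

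**Figure D1:**
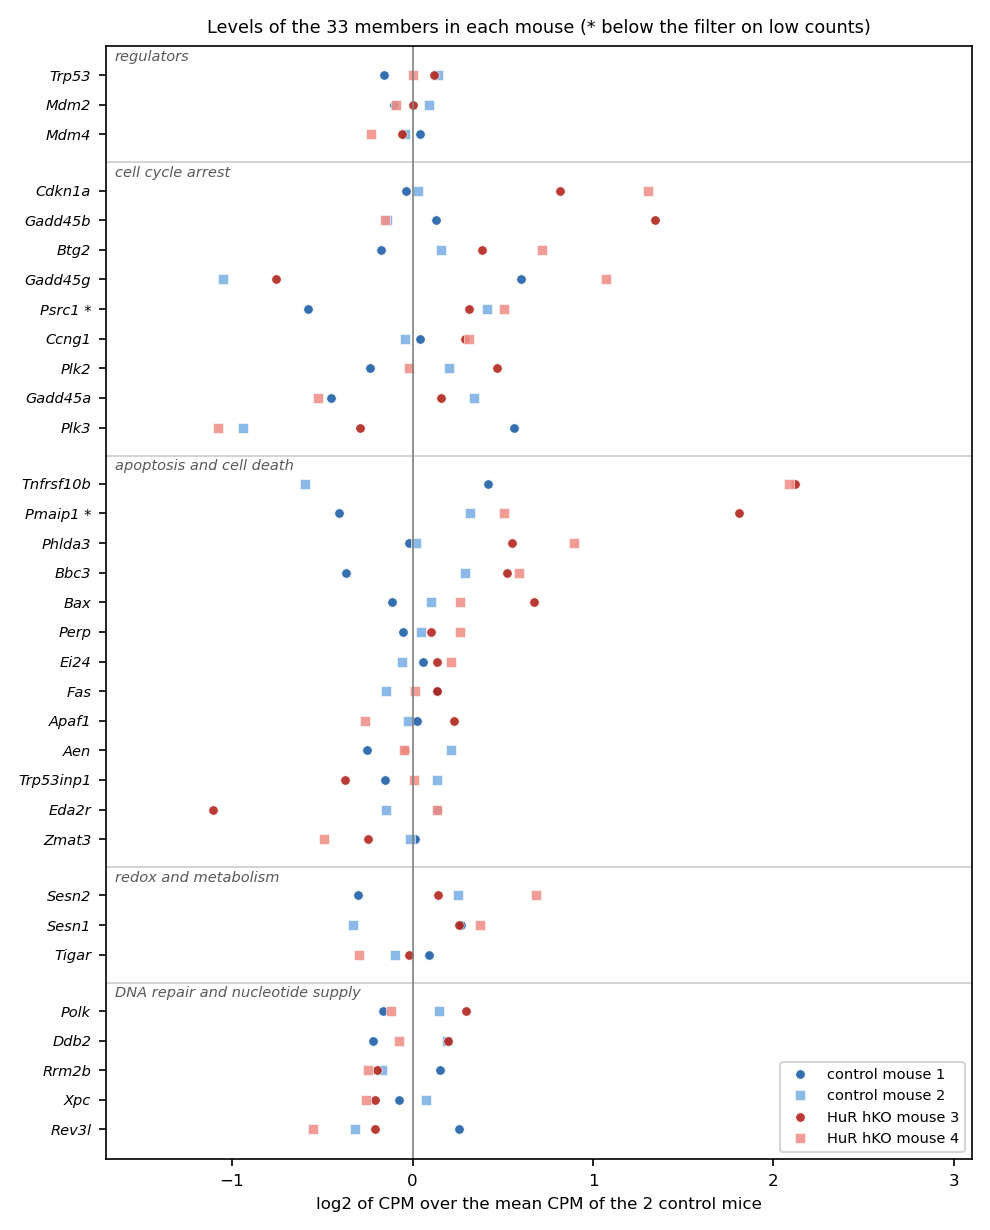
Level of each of the 33 genes in each mouse, as log2 of its CPM over the mean CPM of the 2 control mice, grouped by role; circles are mice 1 and 3, squares are mice 2 and 4, blue is control and red is the group labelled HuR hKO. The red symbols lie right of both blue symbols for Cdkn1a, Btg2, Ccng1, Tnfrsf10b, Phlda3, Bbc3, Bax, Perp and Ei24, and also for Pmaip1, which was below the filter, while Gadd45g and Plk3 are spread as widely within groups as between them.

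The core of the pathway differed little between the groups, which overlapped for Trp53 and Mdm2. Trp53 (chr11, 69580359 to 69591873) was at 15.1 and 18.6 CPM in the control mice and at 18.3 and 16.9 CPM in the mice labelled HuR hKO. The groups overlapped, and the log2 fold change was 0.06 (SE 0.161, edgeR adjusted p = 0.96), with a sign that turned when control mouse 1 (-0.09) or mouse 3 (-0.01) was left out. Mdm2, the ubiquitin ligase that p53 itself induces, was at 27.0 and 30.9 CPM in the controls and at 29.0 and 27.2 CPM in the mice labelled HuR hKO. These also overlapped, with a log2 fold change of -0.04 (SE 0.137, edgeR adjusted p = 0.963), which was 0.26 without scaling for library size.

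Mdm4, the Mdm2 relative that inhibits p53 without degrading it, was at 47.3 and 44.6 CPM in the controls and at 44.2 and 39.2 CPM in the mice labelled HuR hKO. Its groups were apart by a small margin, and the log2 fold change of -0.14 (SE 0.134, edgeR adjusted p = 0.85) was 0.16 without scaling. Levels per kb of exon were taken over the union of exons of all annotated transcripts, which can exceed the length of the transcript expressed. Mdm2 had 5.7 and 5.53, Trp53 4.17 and 4.35, and Mdm4 3.1 and 2.82 CPM per kb in the control mice and the mice labelled HuR hKO. The order of these 3 genes was thus the same in both groups, but it depends on the length used. In mean CPM, Mdm4 was the highest of the 3, at 45.9 in the control mice and 41.7 in the mice labelled HuR hKO.

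Of the 9 genes that restrain the cell cycle, 8 were tested, and 6 had a higher and 2 a lower fitted level in the libraries labelled HuR hKO. Cdkn1a, Btg2 and Ccng1 were higher at an unadjusted p under 0.05, as were 4.04% of all genes tested. Cdkn1a encodes p21, the inhibitor of cyclin-dependent kinases that carries out p53-driven arrest (chr17, 29090976 to 29100727, plus strand). Counts were 73 and 77 in the control mice and 142 and 261 in the mice labelled HuR hKO, or 5.49, 5.75, 9.91 and 13.9 CPM. The controls differed by 1.05-fold and the mice labelled HuR hKO by 1.4-fold, with mouse 4 highest. The log2 fold change was 1.08 (SE 0.223, edgeR adjusted p = 0.207), the smallest p of the 31 members. Leaving out each mouse gave values from 0.82 to 1.28, and the lowest, without mouse 4, fell under the 1.8-fold limit. The adjusted p of Cdkn1a was below 0.05 with edgeR's exact test, without a filter on low counts and without scaling, and the count of members passing was then 1. Those runs passed 120, 161 and 155 of all genes, against 3 in the main test. Without scaling, the median log2 fold change over all genes was itself 0.31.

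Btg2, an antiproliferative regulator of transcription and mRNA decay, was at 7.07 and 8.88 CPM in the control mice and at 10.4 and 13.1 CPM in the mice labelled HuR hKO. The mice of each group differed by 1.26-fold, less than the 1.47-fold between the groups, and the log2 fold change was 0.56 (SE 0.206, edgeR adjusted p = 0.58). Ccng1, or cyclin G1, a p53 target that recruits a phosphatase to Mdm2, was at 38.9 and 36.7 CPM in the controls and at 46.3 and 46.9 CPM in the mice labelled HuR hKO. Its change was small and even across mice, 1.23-fold, with a log2 fold change of 0.30 (SE 0.127, edgeR adjusted p = 0.653) and 0.26 to 0.33 with each mouse left out.

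**Figure D2:**
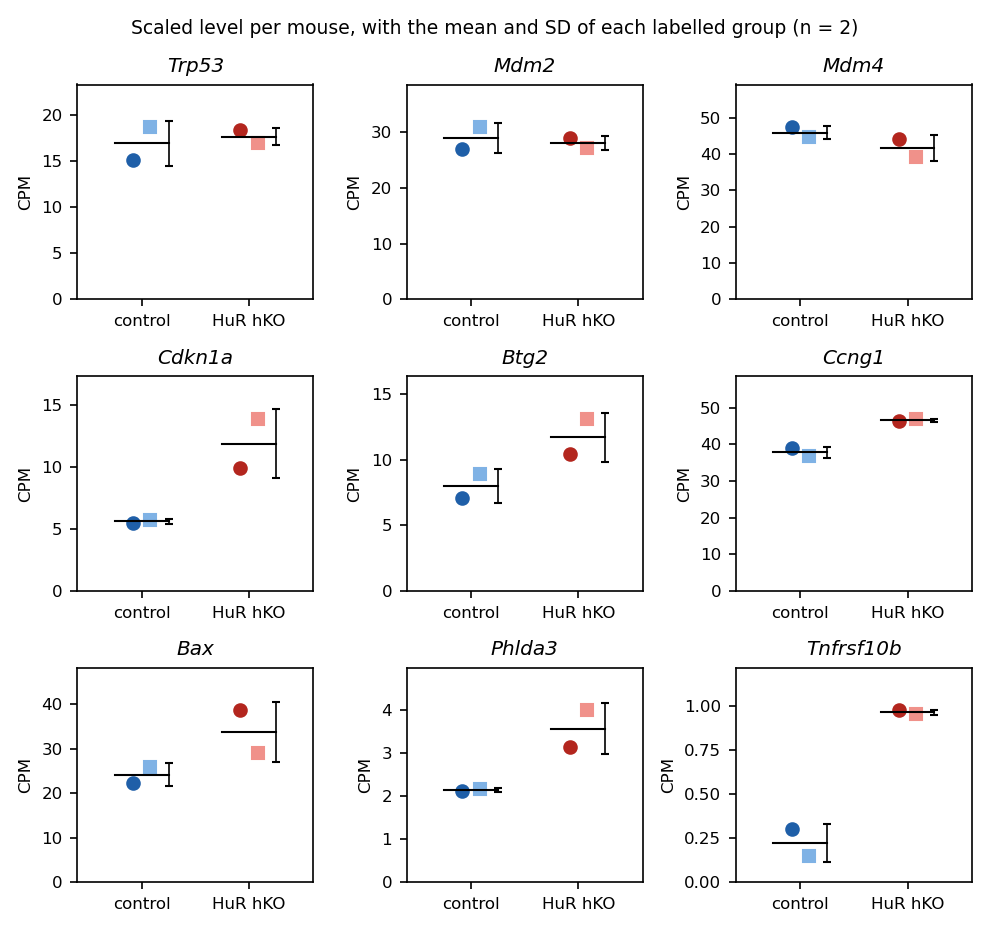
Scaled level in CPM of 9 genes in each mouse, on linear axes that start at 0; circles and squares are single mice (blue circle mouse 1, light blue square mouse 2, red circle mouse 3, light red square mouse 4), the horizontal line is the group mean and the bar its SD (n = 2). Trp53 and Mdm2 overlap between groups, Cdkn1a is at 5.49 to 5.75 CPM in the controls and 9.91 to 13.9 CPM in the mice labelled HuR hKO, and Tnfrsf10b stays below 1 CPM in every mouse.

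The 3 GADD45 genes encode small stress sensors that bind Pcna, p21 and MAP kinase kinases, and none of them reached an unadjusted p under 0.05. Gadd45a, the member that p53 controls most directly, was at 7.15, 12.4, 10.9 and 6.8 CPM in mice 1, 2, 3 and 4, so the extremes of the 2 groups overlapped (log2 fold change -0.16, adjusted p = 0.939), and without strand its reads cannot be told apart from those of E230016M11Rik on the opposite strand. Gadd45b had 12, 10, 30 and 14 counts, with mouse 3 alone above the others, and its log2 fold change of 0.74 (adjusted p = 0.825) became -0.17 without mouse 3. Gadd45g was at 23.2, 7.39, 9.07 and 32.1 CPM, a spread of 3.14-fold between the controls and 3.54-fold between the mice labelled HuR hKO. Its log2 fold change of 0.45 (adjusted p = 0.901) ran from -0.75 without mouse 4 to 1.48 without control mouse 1.

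The polo-like kinases Plk2 and Plk3, which act at stress checkpoints, differed from each other in level and in spread. Plk3 was at 85.4, 30.2, 47.2 and 27.4 CPM in mice 1 to 4, with control mouse 1 far above the other 3. Its log2 fold change of -0.64 (SE 0.431, adjusted p = 0.779) was the lowest among the members and became 0.29 without control mouse 1 and -1.2, past the threshold, without control mouse 2. Plk2 lay between 7.0 and 11.4 CPM (log2 fold change 0.23, adjusted p = 0.864, and -0.04 without mouse 3). Per kb of exon Plk3 had 22.8 and Plk2 1.83 CPM per kb in the controls. Psrc1, a microtubule-binding spindle protein, was below the filter with 3, 6, 6 and 9 counts, a ratio of 1.34 (95% counting interval 0.55 to 3.47) of the summed scaled counts.

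Among 13 genes of apoptosis and cell death, 12 were tested, and 7 had a higher and 5 a lower fitted level in the libraries labelled HuR hKO. Tnfrsf10b, Bax and Phlda3 were higher at an unadjusted p under 0.05, as were 4.04% of all genes tested. Tnfrsf10b encodes the mouse death receptor for TRAIL (chr14, 69767472 to 69784411). Counts were 4 and 2 in the control mice and 14 and 18 in the mice labelled HuR hKO, or 0.301, 0.149, 0.977 and 0.956 CPM, near the limit of these libraries. The log2 fold change was 2.06 (SE 0.648, edgeR adjusted p = 0.51), and the ratio of the summed scaled counts was 4.29 with a 95% counting interval of 1.77 to 12.6. With the DESeq2 Wald test it no longer passed (log2 fold change 2.1), nor without control mouse 2 (1.66), mouse 3 (2.03) or mouse 4 (2.08). A filter that asked for 10 counts in each library left it out.

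Bax, the protein that opens the outer mitochondrial membrane, was at 22.4 and 26.0 CPM in the control mice and at 38.6 and 29.0 CPM in the mice labelled HuR hKO. Mouse 3 was highest here, whereas mouse 4 was highest for Cdkn1a, Btg2 and Phlda3. The log2 fold change of Bax was 0.48 (SE 0.172, edgeR adjusted p = 0.574), and 0.25 without mouse 3. Phlda3, a p53 target that restrains Akt, was at 2.11 and 2.17 CPM in the controls and at 3.14 and 3.98 CPM in the mice labelled HuR hKO. The log2 fold change of Phlda3 was 0.74 (SE 0.307, edgeR adjusted p = 0.641), from 0.55 to 0.88 with each mouse left out.

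The BH3-only genes Bbc3 (PUMA) and Pmaip1 (NOXA), which release Bax from its inhibitors, had higher levels in both mice labelled HuR hKO than in either control, but Bbc3 did not reach an unadjusted p under 0.05 and Pmaip1 was not tested. Bbc3 was at 4.29 and 6.79 CPM in the controls and at 7.95 and 8.33 CPM in the others (log2 fold change 0.56, SE 0.254, adjusted p = 0.675), and 0.25 without control mouse 1. Pmaip1 had 3, 5, 15 and 8 counts and was below the filter, with a ratio of 2.31 and a 95% counting interval of 0.999 to 5.98. Apaf1, the scaffold of the apoptosome that acts downstream of Bax, was at 2.28 to 3.21 CPM with a log2 fold change of -0.01, which was 0.29 without scaling.

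Ei24, an endoplasmic reticulum protein, and Perp, a membrane protein of desmosomes, were the most abundant members, at 167.0 to 201.8 and 105.8 to 131.5 CPM. Each had both mice labelled HuR hKO above both controls with a log2 fold change of 0.18 (adjusted p = 0.806 and 0.792). Fas, a death receptor through which hepatocytes can be killed, was at 14.8 ± 2.04 CPM in the controls and 15.7 ± 0.919 CPM in the mice labelled HuR hKO (SD, n = 2 per group, log2 fold change 0.08, SE 0.165, adjusted p = 0.939). The remaining genes had fitted levels that were lower, Zmat3 (an RNA binding zinc finger protein, log2 fold change -0.37, adjusted p = 0.711), Eda2r (a receptor for ectodysplasin, -0.32), Trp53inp1 (a p53-induced nuclear protein, -0.17) and Aen (a nuclease, -0.04). Of these, Eda2r, Trp53inp1 and Aen turned positive without scaling, whereas Zmat3 stayed negative under each alternative run.

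**Figure D3:**
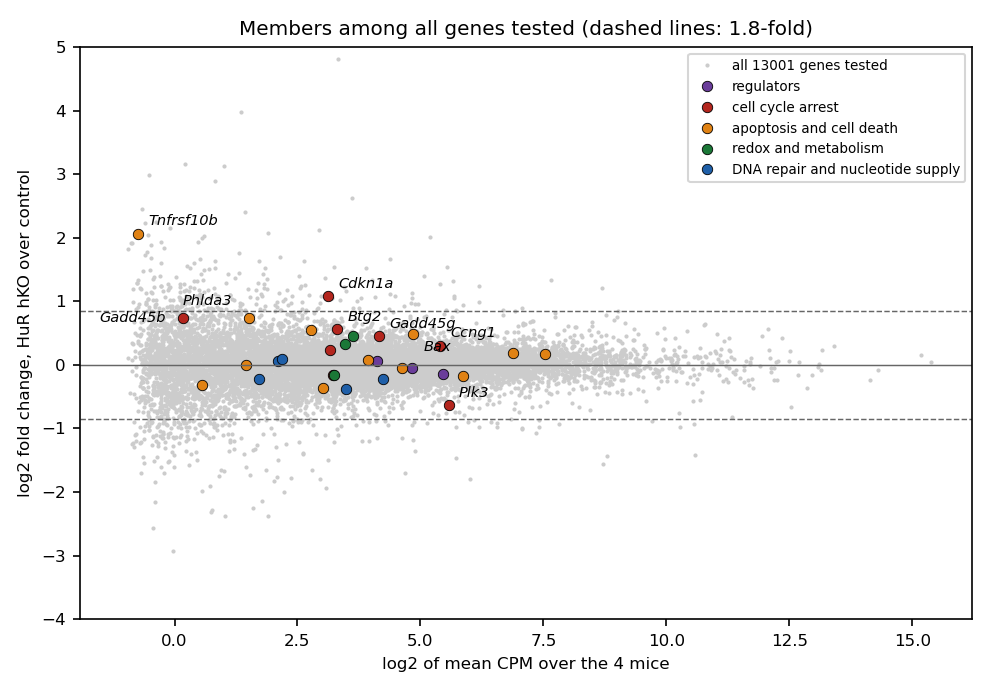
Log2 fold change of the libraries labelled HuR hKO over control against log2 of the mean CPM over the 4 mice, for all 13001 genes tested (grey) and the 31 members tested (coloured by role), with dashed lines at 1.8-fold. Cdkn1a and Tnfrsf10b are the members above the upper line, Tnfrsf10b at the low end of expression where the grey cloud is widest, and 0 members lie below the lower line.

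The sestrins Sesn1 and Sesn2, which restrain mTORC1 and limit oxidative stress, and Tigar, a phosphatase that lowers glycolytic flux, did not reach an unadjusted p under 0.05 either. Sesn1 was at 11.9 and 7.84 CPM in the controls and at 11.8 and 12.8 CPM in the mice labelled HuR hKO (log2 fold change 0.32, adjusted p = 0.779), and Sesn2 was at 8.5, 12.5, 11.6 and 16.9 CPM in mice 1 to 4 (0.45, adjusted p = 0.725). The groups overlapped for both sestrins, whose levels per kb in the controls were 2.48 and 3.02 CPM. Tigar was at 8.12 to 10.6 CPM (log2 fold change -0.16, and 0.14 without scaling).

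None of the 5 genes of DNA repair and nucleotide supply passed an unadjusted p of 0.05, and their median log2 fold change was -0.22. Xpc, the lesion sensor of nucleotide excision repair, was at 19.3 and 21.4 CPM in the controls and at 17.6 and 17.0 CPM in the mice labelled HuR hKO. Its groups were apart, with a log2 fold change of -0.23 (SE 0.144, adjusted p = 0.763) that was 0.08 without scaling. Rrm2b, the p53-induced subunit of ribonucleotide reductase, was at 3.91, 3.14, 3.07 and 2.97 CPM in mice 1 to 4 (-0.22, and 0.09 without scaling). Ddb2, which recognises ultraviolet lesions, was at 3.61 to 4.81 CPM (0.06), and it overlaps exons of the more abundant Acp2 on the opposite strand. Of the translesion polymerases, Polk was at 3.91 to 5.37 CPM (0.09) and Rev3l, the catalytic subunit of polymerase zeta, at 8.65 to 15.2 CPM (-0.38, adjusted p = 0.755), with both groups overlapping.

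**Figure D4:**
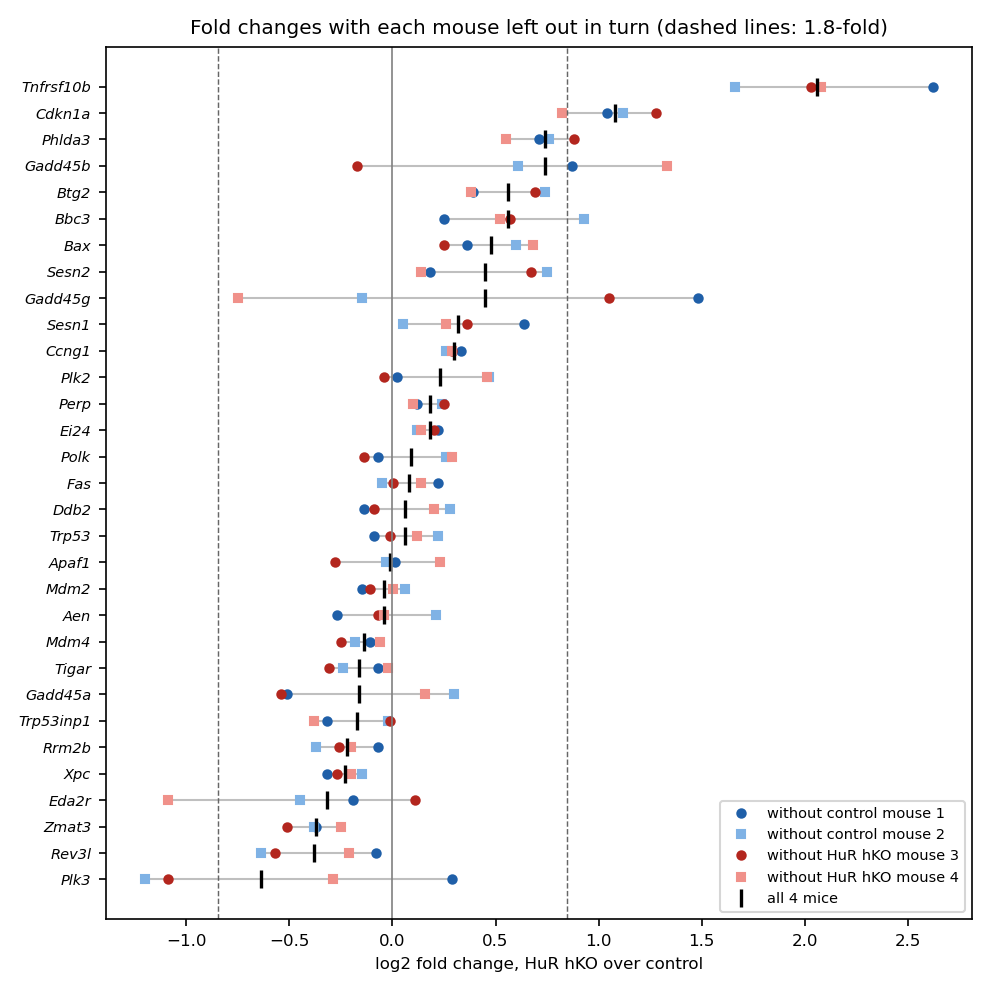
Fitted log2 fold change of the 31 members tested with all 4 mice (black bar) and after dropping mice 1 to 4 singly (coloured symbols), ordered by the value with all mice, with dashed lines at 1.8-fold. Tnfrsf10b, Cdkn1a, Phlda3, Btg2, Bbc3, Bax, Sesn2, Sesn1, Ccng1, Ei24 and Perp stay to the right of 0 whichever mouse is left out. Mdm4, Trp53inp1, Zmat3, Xpc, Rrm2b, Tigar and Rev3l stay to the left of 0. Gadd45g runs from -0.75 to 1.48 and Plk3 from -1.2 to 0.29.

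Further lists, also chosen with earlier results of these data known, place these genes in the wider pathway. Of 33 damage signalling kinases and sensors, 30 were tested, 15 higher and 15 lower (median log2 fold change -0.02), with 0 genes past the threshold, and Claspn was not matched. Both mice labelled HuR hKO lay above both controls for 3 of the 30 and below them for 9, where 19.3% and 18.8% of all genes tested did so. The same counts were 2 above and 4 below among the regulators and partners of p53, 10 above and 6 below among the other p53 target genes, and 8 above and 4 below among the genes of proliferation. Among the damage signalling kinases and sensors, the smallest p-values were those of Xrcc5, the Ku80 end-binding protein (log2 fold change 0.46, SE 0.167, edgeR adjusted p = 0.574), and Rnf168, a ubiquitin ligase of the break response (-0.37, adjusted p = 0.67). Of 22 regulators and partners of p53, 19 were tested, of which 10 were higher and 9 lower (median log2 fold change 0.01), and 1 passed the threshold. This was Setd7, a lysine methyltransferase that acts on p53, at 8.2 and 5.67 CPM in the controls and at 3.84 and 3.29 CPM in the mice labelled HuR hKO (log2 fold change -0.96, SE 0.269, edgeR adjusted p = 0.435), and it did not pass without control mouse 1 (-0.69). Next came Twist1 (-0.81, adjusted p = 0.752).

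Of 37 other p53 target genes, 33 were tested, 21 with a higher and 12 with a lower fitted level and a median log2 fold change of 0.07. At an unadjusted p under 0.05, 4 were higher and 0 lower, where 4.04% of all genes tested were higher and 3.39% lower. The 1 past the threshold was Ddit4, an inhibitor of mTORC1 that hypoxia and glucocorticoids also induce, at 9.18 and 8.21 CPM in the controls and at 10.7 and 23.9 CPM in the mice labelled HuR hKO. The value rested on mouse 4, as the log2 fold change of 1.01 (SE 0.336, edgeR adjusted p = 0.548) was 0.31 without it. Gls2, the liver glutaminase, was at 250.7 and 218.2 CPM in the controls and at 314.6 and 331.3 CPM in the mice labelled HuR hKO (log2 fold change 0.46, adjusted p = 0.49), and Notch1 at 14.1 and 14.0 against 20.2 and 18.8 CPM (0.47, adjusted p = 0.51).

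Genes of proliferation, which p21 restrains when it halts the cycle, formed the last list. Of 24, 18 were tested, 12 with a higher and 6 with a lower fitted level under the HuR hKO label. Their median log2 fold change was 0.22, and the 2 genes at an unadjusted p under 0.05 were both higher. Of all genes tested, 4.04% were higher and 3.39% lower at this level. Mki67, the marker of cycling cells, had 15 and 8 counts in the controls and 33 and 31 in the mice labelled HuR hKO (log2 fold change 1.18, SE 0.474, edgeR adjusted p = 0.632), but it did not pass with the DESeq2 Wald test or without control mouse 2, mouse 3 or mouse 4. Mcm6, a subunit of the replicative helicase, was at 3.69 and 3.58 against 5.58 and 6.21 CPM (0.70, adjusted p = 0.559). Ccnb1, Ccnb2, Plk1, Aurkb, Bub1 and Cdc20 were below the filter.

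Summed marker levels differed between mice. Kupffer cell and macrophage markers (12 genes, 9 of 12 with a higher fitted level) summed to 280.9 and 295.6 CPM in the controls and 331.7 and 309.3 CPM in the mice labelled HuR hKO, stellate cell markers (8 of 10 higher) to 244.2, 229.3, 248.5 and 314.0 CPM in mice 1 to 4, and erythroid markers (all 5 tested higher) to 363.2, 450.5, 488.5 and 711.0 CPM. Endothelial markers (10 of 10 higher) summed to 329.9, 289.2, 367.5 and 328.3 CPM. The largest stellate and erythroid sums were in mouse 4, as were the highest levels of Cdkn1a, Btg2, Phlda3 and Ddit4. This compares the highest mouse only, and the part of these cells in the results was not tested.

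Cholangiocyte markers (2 of 6 tested with a higher fitted level) summed to 75.3, 44.0, 53.4 and 63.4 CPM, with the highest value in control mouse 1. B cell markers (5 of 6 higher) summed to 6.4, 42.8, 20.6 and 35.8 CPM. T and NK cell markers (1 of 2 higher) summed to 3.54, 5.08, 4.33 and 4.78 CPM, and neutrophil markers (0 of 1 higher) to 2.26, 3.36, 2.16 and 1.54 CPM, with Ly6g and Camp at 0 in all 4 mice. Hepatocyte markers were split evenly, 5 higher and 5 lower.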

How the data were processed

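Total liver RNA of 4 mice was sequenced, and per the labels the authors' processing notes name RSEM and the build GRCm38, while the aligner and the use of strand are not given in the sources used here. The authors deposited whole-number counts per gene for each mouse, without normalization, and whether they were rounded estimates is not stated. Columns were matched to mice by the labels. Counts were scaled with TMM factors and tested with the quasi-likelihood test of edgeR 4.0.16 (R 4.3.3), two-sided, after its default filter (minimum 10 counts, total 15), with Benjamini-Hochberg adjustment over 13001 genes. The threshold, a fold change of at least 1.8 with an unadjusted p under 0.05, is that of the study's legend. An exact permutation test of 2 against 2 mice cannot go below p = 0.333. Ratios of low counts have exact conditional 95% intervals that cover counting error only.

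Symbols, coordinates and exon lengths came from GENCODE M21. Upstream sequences came from RefSeq (GRCm38.p6). The script was tested on simulated counts. The 33 members, the gene lists and the alternatives were chosen with earlier results of these data known. All members are named, those with p under 0.05 and Trp53, Mdm2 and Mdm4 with a value in every library; of the other lists, genes past the threshold and at most the 2 with the smallest p are named. The labels number 4 mice, all male, with 1 library each, so p-values measure the spread between these animals and libraries together. The alternatives were DESeq2 size factors, upper quartile factors, no scaling, no filter, a filter of 10 counts in each library, the DESeq2 1.42.0 Wald test, edgeR's exact and robust tests, limma-voom (limma 3.58.1) and leaving out each mouse.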

Additional observations from a re-analysis of the deposited data

How the results depend on the processing

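With 2 mice per group, each call rests on little. No paired analysis was possible because the groups share no replicate numbers. Over 13 alternatives, the fold changes of the 31 members gave 402 values, of which 360 kept their direction and their side of the threshold. DESeq2 size factors, upper quartile factors, edgeR's exact and robust tests and limma-voom moved none of these. When a mouse was left out, the lone mouse of its group was assumed to vary like the other group.

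Without scaling for library size the median over all genes was 0.31 (log2) and the median of the members 0.39. Then 6 members passed the threshold as higher, as did 510 of the 13001 genes tested, against 157 of these in the main test. Of the members, 1 passed by adjusted p, 19 were apart as higher and 0 as lower. The share of all genes apart was not computed without scaling. Of the other pathway genes 9 passed as higher and 0 as lower. The sign then turned positive for 10 members, Aen (0.27), Tigar (0.14), Rrm2b (0.09), Mdm4 (0.16), Mdm2 (0.26), Trp53inp1 (0.17), Gadd45a (0.12), Eda2r (0.03), Xpc (0.08) and Apaf1 (0.29), by a shift close to that of all genes. A minimum of 10 counts in every sample left 1 member and 1 other gene past the threshold as higher, as did the DESeq2 Wald test. Over all genes tested, 111 of 12118 passed as higher with that filter and 107 of 13001 with the Wald test. By adjusted p, 1 member (Cdkn1a) passed with no filter and with the exact test. Over all genes, an adjusted p under 0.05 was reached by 3 genes in the main test, 161 with no filter, 120 with the exact test, 85 with the DESeq2 Wald test and 155 without scaling.

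Which members passed the threshold changed with the mouse left out. The log2 fold change of Cdkn1a then ran from 0.82 to 1.28, the lowest being under the 1.8-fold limit, and that of Tnfrsf10b from 1.66 to 2.62. These fits leave 1 mouse in a group, so no count of genes passing is given for them. The range over the omitted mice crossed 0 for 13 members, Aen (-0.27 to 0.21), Apaf1 (-0.28 to 0.23), Ddb2 (-0.14 to 0.28), Eda2r (-1.09 to 0.11), Fas (-0.05 to 0.22), Gadd45a (-0.54 to 0.3), Gadd45b (-0.17 to 1.33), Gadd45g (-0.75 to 1.48), Mdm2 (-0.15 to 0.06), Plk2 (-0.04 to 0.47), Plk3 (-1.2 to 0.29), Polk (-0.14 to 0.29) and Trp53 (-0.09 to 0.22). The cause was not tested.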
